A study of Homo sapiens with 24 samples.

Results

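The E2F factors and the retinoblastoma family were followed in KARPAS-422, a human diffuse large B-cell lymphoma line that the labels give as EZH2 Y641N, while its EZH2 methyltransferase was inhibited. The 10 genes were chosen by name, with earlier results of these data known. They were the activator factors E2F1, E2F2 and E2F3 and the repressor factors E2F4, E2F7 and E2F8. The dimerization partner gene TFDP1 and the pocket protein genes RB1, RBL1 and RBL2 completed the set. These 10 are among 19775 genes that could be named on the arrays, and they have 23 probe sets (groups of probes for 1 transcript). For each gene the brightest probe set over all arrays carried the main value, and none of the 10 was among the dimmest 40 percent of genes. Cells received DMSO, the solvent control, or an EZH2 inhibitor at 5 uM, and RNA was taken at days 1, 2, 3 and 6, with 3 biological replicates for each of the 8 groups. All groups share the EZH2 genotype. A cell line of one origin bears on other lymphomas only as a model.

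E2F factors bind DNA as dimers with DP proteins, of which TFDP1 encodes the main one, and set the transcription of genes for DNA synthesis and division. Pocket proteins hold E2F factors inactive, and cyclin-dependent kinases release them by phosphorylation as a cell commits to S phase. RBL2 with E2F4 is the typical pairing of resting cells, in the DREAM complex, whereas E2F1, E2F2 and RBL1 are themselves E2F targets in dividing cells. E2F7 and E2F8 are atypical repressors that bind without a DP partner and act late in S phase.

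Because several of these genes are themselves known E2F targets, the DNA just before their start sites is shown with E2F-type letters in capitals. The stretches are from RefSeq promoter windows (build GRCh38.p14) and lie upstream of the listed start, written 5′ to 3′ on the strand of the gene. Capitals mark the letters TTTCCCGC, TTTCGCGC, TTTGCCGC or TTTGGCGC, or the same without the initial T, on either strand. The stretches are chr20:33686386-33686433 (minus strand) for E2F1, chr20:37095998-37096038 (minus) for RBL1, chr1:23531253-23531290 (minus) for E2F2, chr6:20401811-20401876 (plus) for E2F3, chr13:113584618-113584655 (plus) for TFDP1 and chr12:77065681-77065760 (minus) for E2F7.
E2F1: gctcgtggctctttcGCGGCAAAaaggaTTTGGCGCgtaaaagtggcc
RBL1: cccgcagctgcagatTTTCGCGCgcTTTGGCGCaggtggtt
E2F2: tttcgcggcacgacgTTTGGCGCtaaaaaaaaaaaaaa
E2F3: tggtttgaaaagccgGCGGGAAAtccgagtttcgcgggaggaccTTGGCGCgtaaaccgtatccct
TFDP1: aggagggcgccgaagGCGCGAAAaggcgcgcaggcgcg
E2F7: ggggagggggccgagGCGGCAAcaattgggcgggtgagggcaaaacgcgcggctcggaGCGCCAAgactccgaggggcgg

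The 250 bases before the start could be searched for 9 of the 10 genes, all but E2F8, in 11 windows. An 8-letter match was found for 5 genes, E2F1, RBL1, E2F2, E2F3 and TFDP1, against 2.79% of all 35116 windows of that length. E2F1 and RBL1 each had 2 such matches within 33 bases of the start. With the initial T dropped, E2F7 joined them, at a background of 10.9%. Neither form was found in the windows of RBL2, E2F4 and RB1, and the RB1 window lies inside the gene, away from its 5′ end. The letters TTTGAA and TTCGAA, of the cell cycle homology type read by the DREAM complex, occurred for E2F3 alone, against 14.3% of windows. A match of letters is a description of the sequence and was not tested for binding.

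Over the course, the activator genes fell, the pocket protein gene RBL2 rose and E2F8 fell late. Values are log2 expression, differences are log2 too, taken as inhibitor minus same-day DMSO and followed by limma's standard error (SE, 3 arrays in each group), and a gene is said to rise or fall when limma's adjusted p was under 0.05. At day 1, limma called 0 of the 10 genes, as against 0.485% of all genes, and at day 2 again 0, against 4.39%. At limma's unadjusted p under 0.05 there was 1 of the 10 at day 1 and 2 at day 2. No share of all genes at that looser threshold is given. At day 3, E2F1 and E2F2 were lower and E2F7 and RBL2 higher, 2 in each direction, where 7.65% of all genes were lower and 8.64% higher (16.3% in all). At day 6, 8 were lower and 1, RBL2, higher, and E2F7 was not called, where 26.9% of all genes were lower and 18.5% higher (45.4% in all). With same-numbered arrays of a day treated as a block, limma called 5 of the 10 at day 3 and 10 at day 6. Of all genes, the block called 301 in place of 96 at day 1 and 4853 in place of 3221 at day 3. For day 6 no blocked count of all genes is given here, and 45.4% were already called without the block. The blocked count of 10 at day 6 thus stands without its share of all genes, and nothing is read from it. The median difference of the 10 moved from 0.03, -0.08 and -0.18 at days 1, 2 and 3 to -0.47 at day 6, while that of all genes was -0.01, -0.04, -0.04 and -0.11. In RNA from a whole culture, fewer cells in cycle and less transcript per cell cannot be told apart.

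**Figure D1:**
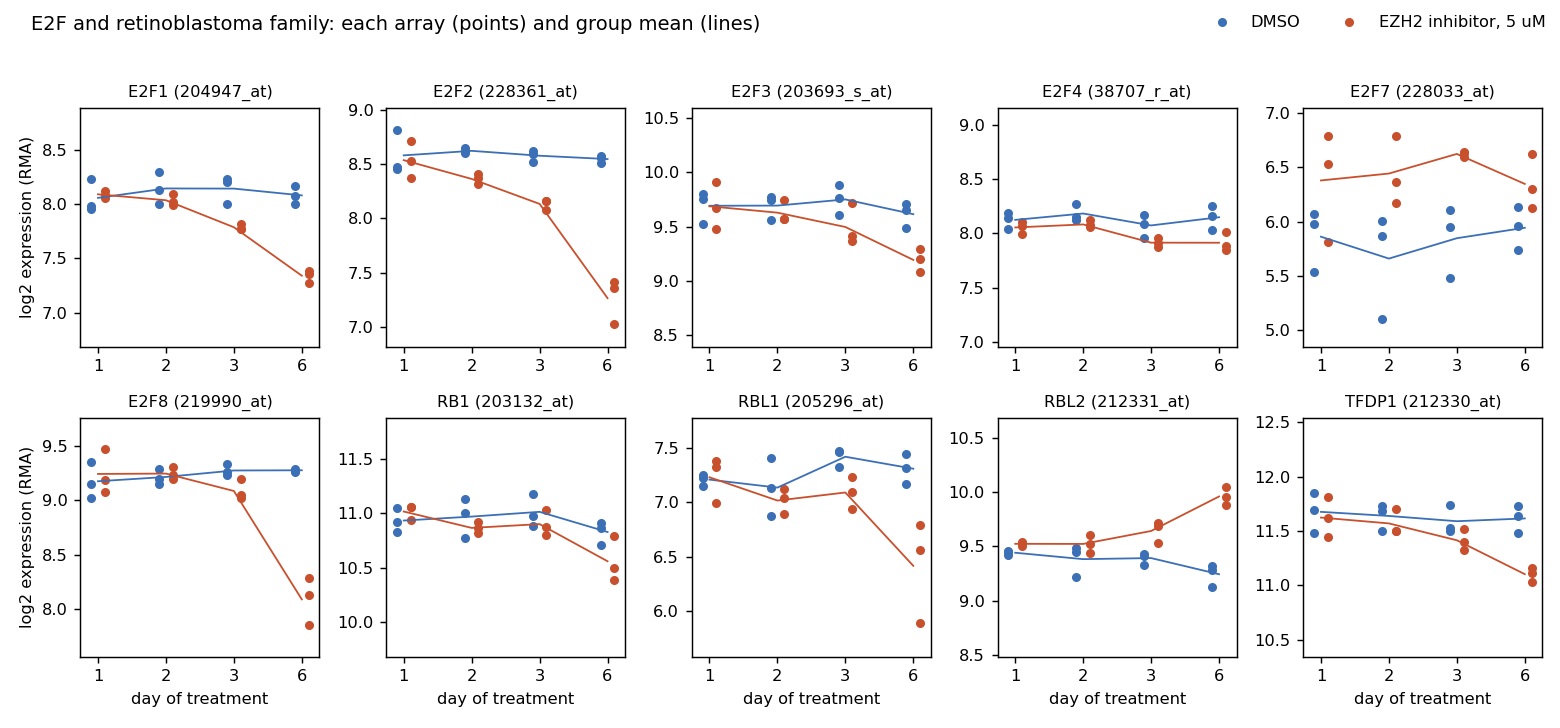
Log2 expression (RMA) of each array against day of treatment for the 10 genes, blue for DMSO and orange for the inhibitor, with points for arrays, lines for group means, days spaced evenly rather than to scale, and every panel spanning the same height of log2 units. E2F2 and E2F8 drop to inhibitor means of 7.27 and 8.09 at day 6, RBL2 climbs to 9.96, and the DMSO means of day 6 lie between -0.20 and 0.10 of those of day 1.

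E2F1, the best known activator, which drives S phase entry, was measured at 8.23, 7.96 and 7.98 in the DMSO arrays of day 1 and at 8.09, 8.06 and 8.12 with the inhibitor. By day 3 the inhibitor arrays stood at 7.77, 7.77 and 7.82 and the DMSO arrays at 8.0, 8.20 and 8.23, and the groups no longer overlapped. The difference was -0.36 ± 0.08 (adjusted p = 0.0047). At day 6 the inhibitor arrays, at 7.36, 7.39 and 7.28, were all below the DMSO arrays, at 8.07, 8.0 and 8.16. E2F1 was then lower by a difference of -0.74 ± 0.08, or 1.67-fold (adjusted p = 2.27e-07). The other E2F1 probe set gave -0.63 ± 0.09 at day 6.

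E2F2, an activator abundant in blood cell lineages, showed the largest fall of the 10 genes by their brightest probe sets. Its DMSO arrays at day 6 read 8.58, 8.55 and 8.51, and its inhibitor arrays 7.41, 7.02 and 7.36, well apart from them. The difference was -1.28 ± 0.10, a 2.43-fold lower level (adjusted p = 9.15e-10). At day 3 the inhibitor arrays (8.16, 8.07 and 8.16) were already all below the DMSO arrays (8.62, 8.59 and 8.52), by -0.44 ± 0.10 (adjusted p = 0.00357). At day 2 the groups were separate too, with a difference of -0.26 that was not called (adjusted p = 0.18). Of the dimmer E2F2 probe sets, one fell by 0.78 ± 0.16 at day 6, while the other was not called (-0.30 ± 0.12, adjusted p = 0.058).

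E2F3, the activator with a long and a short protein form, read 9.71, 9.65 and 9.48 in DMSO and 9.29, 9.08 and 9.20 with the inhibitor at day 6. The inhibitor arrays were all lower, by -0.42 ± 0.11 (adjusted p = 0.0049). At day 3 the groups overlapped, and the difference of -0.25 ± 0.11 was not called (adjusted p = 0.15), though the other probe set of E2F3 was just called at -0.24 ± 0.08 (adjusted p = 0.049). With same-numbered arrays of a day treated as a block, limma called the brightest probe set of E2F3 as well (adjusted p = 0.032). Neither probe set tells the long from the short form by name.

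TFDP1 encodes the DP1 partner that activator and canonical repressor E2Fs need for binding. Its day 6 arrays read 11.73, 11.64 and 11.48 in DMSO and 11.16, 11.11 and 11.04 with the inhibitor, without overlap. The fall was -0.51 ± 0.11 (adjusted p = 0.00046). The other probe sets gave -0.79 ± 0.08 and -1.77 ± 0.15, so that the size of the fall depended on the probe set while its direction did not. At day 3 both of these were called, at -0.33 and -0.48, and the brightest was not (-0.18, adjusted p = 0.31).

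**Figure D2:**
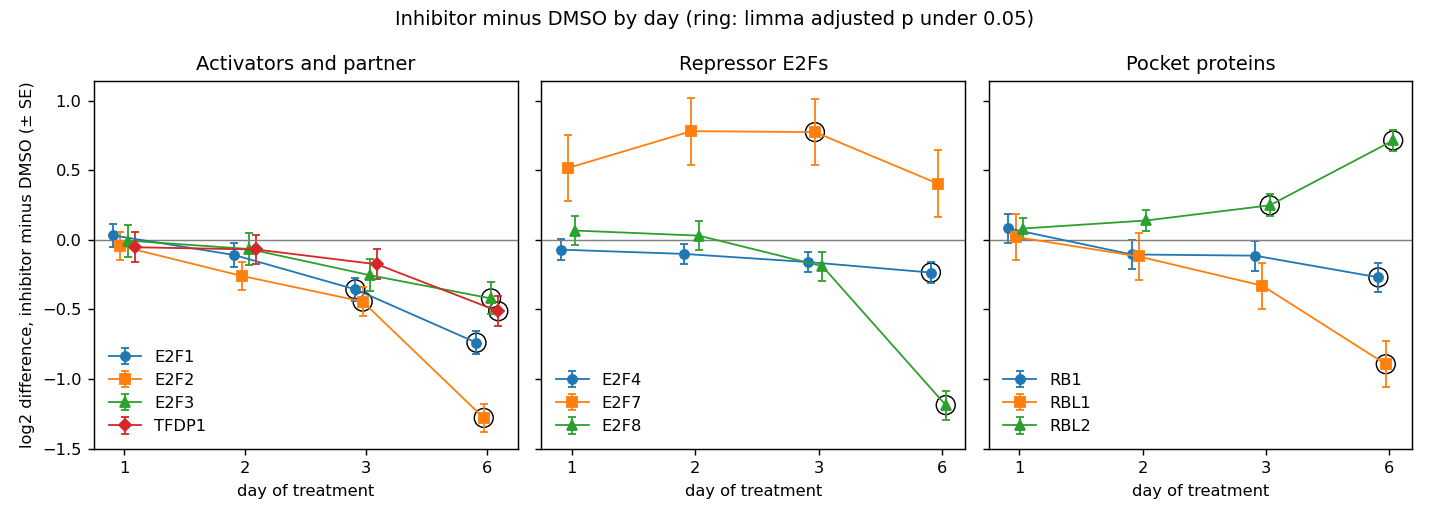
Log2 difference, inhibitor minus DMSO, at days 1, 2, 3 and 6 (evenly spaced) for the activators with TFDP1, the repressor E2Fs and the pocket proteins, with bars for the SE of the fit and rings where limma's adjusted p was under 0.05. The activators slope down to between -0.42 and -1.28 at day 6, E2F7 lies above 0 at every day, E2F8 stays near 0 until day 3 and then reaches -1.19, and RBL1 and RBL2 part to -0.89 and 0.72.

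Among the repressors, E2F8 fell late. Its inhibitor arrays read 9.47, 9.08 and 9.18 at day 1 and 9.31, 9.19 and 9.24 at day 2, overlapping the DMSO arrays of both days. At day 3 they were 9.19, 9.02 and 9.05, each under the DMSO arrays at 9.33, 9.26 and 9.23, with a difference of -0.19 that was not called (adjusted p = 0.25). At day 6 the inhibitor arrays dropped to 8.28, 7.85 and 8.13, while DMSO held at 9.27, 9.29 and 9.26. The difference was -1.19 ± 0.10, a 2.28-fold lower level (adjusted p = 4.2e-09). E2F8 has 1 probe set on the array.

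E2F7, its closest relative, lay above DMSO at every day with its brightest probe set. At day 3 the inhibitor arrays agreed closely (6.64, 6.60 and 6.64) and were above the DMSO arrays (6.11, 5.96 and 5.48). The difference was 0.78 ± 0.24 (adjusted p = 0.029). It was 0.52 at day 1 and 0.78 at day 2, neither called (adjusted p = 0.798 and 0.0696), and 0.40 at day 6, with a 95% interval from -0.10 to 0.90 (adjusted p = 0.18). With same-numbered arrays of a day treated as a block, limma called the day 6 difference of E2F7 (adjusted p = 0.0162). The same block kept the day 3 call. It also called the day 2 difference (adjusted p = 0.0015), although at day 2 the numbers were not taken as pairs. Without the block, the day 3 call did not hold when the second or the third DMSO array was left out (adjusted p = 0.0502 and 0.152). Nor did it hold when any single inhibitor array was left out (0.0647, 0.0696 and 0.0742). The mean of both E2F7 probe sets gave 0.34 at day 3, not called (adjusted p = 0.0722). The other E2F7 probe set pointed the other way at all 4 days, from -0.05 to -0.20, and was not called at any of them. E2F7 was also lowest in the arrays numbered 3 in every group but the inhibitor group of day 3.

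E2F4, the repressor that partners RBL1 and RBL2, differed little. The day 6 arrays read 8.03, 8.16 and 8.25 in DMSO and 7.84, 7.88 and 8.01 with the inhibitor, just apart from each other. The fall of -0.23 ± 0.07 (adjusted p = 0.013) did not hold when the third DMSO array or the first inhibitor array was left out (adjusted p = 0.0772 and 0.0587). It was about -0.13 relative to the median gene, which itself shifted by -0.11 at day 6, and was not called on that scale (adjusted p = 0.203). The call was kept with the other E2F4 probe set and with the mean of both. Over all 20 alternatives the difference lay between -0.30 and -0.13, and the call was kept in 13.

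Among the pocket proteins, RBL2 rose. This gene for p130, the pocket protein of resting cells, read 9.28, 9.13 and 9.32 in the DMSO arrays of day 6 and 9.95, 9.88 and 10.04 with the inhibitor. All inhibitor arrays were above all DMSO arrays, by 0.72 ± 0.08, or 1.64-fold (adjusted p = 1.2e-07). At day 3 the difference was 0.25 ± 0.08 (adjusted p = 0.033), with arrays at 9.71, 9.68 and 9.53 above 9.43, 9.33 and 9.41. That call did not hold when any single DMSO array was left out (adjusted p = 0.0503, 0.116 and 0.0627 for the first, second and the third), nor when the first or the second inhibitor array was (0.114 and 0.113), nor with the mean of both RBL2 probe sets (0.21, adjusted p = 0.241). The dimmer RBL2 probe set was higher by 0.47 ± 0.20 at day 6 without being called (adjusted p = 0.071), though its groups did not overlap.

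RBL1 moved the opposite way. This gene for p107, the pocket protein of cycling cells, read 7.45, 7.17 and 7.31 in DMSO at day 6 and 6.79, 5.89 and 6.56 with the inhibitor, where replicate 2 was the lowest of all its arrays. The fall was -0.89 ± 0.17 (adjusted p = 0.00013). Its next 2 probe sets by brightness gave -1.08 ± 0.16 and -0.56 ± 0.16, both called. The dimmest was not called (-0.25 ± 0.13, adjusted p = 0.14). The probe set second in brightness was already called at day 3 (-0.60 ± 0.16, adjusted p = 0.015), when the brightest stood at -0.33 without a call (adjusted p = 0.203).

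RB1, the founding member of the family and a tumour suppressor, had the smallest day 6 difference among the pocket protein genes. Its day 6 arrays read 10.86, 10.92 and 10.71 in DMSO and 10.79, 10.39 and 10.50 with the inhibitor, and the groups overlapped. The difference of -0.27 ± 0.11 passed the threshold by little (adjusted p = 0.045). It was not called when the first or the second DMSO array was left out (adjusted p = 0.106 and 0.146), nor when the second or the third inhibitor array was (0.208 and 0.123). Nor was it called relative to the median gene (-0.16, adjusted p = 0.266), with array medians subtracted (-0.25, adjusted p = 0.068), or when adjusted over all probe sets (0.053). The other RB1 probe set was not called at any day.

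Counted over all 23 probe sets, 15 were lower and 1 higher at day 6, and 7 were not called, against 40.2% of all probe sets called. At day 3, 7 were lower and 2 higher, against 12.4%. The arrays of the groups did not overlap for 8 of the 10 genes at day 6, below DMSO for 7 and above for RBL2, where 32.3% of all genes lay below and 19.8% above. With 3 arrays a side, no exact permutation p can be smaller than 0.1, so single genes rest on limma's shared estimate of the spread.

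**Figure D3:**
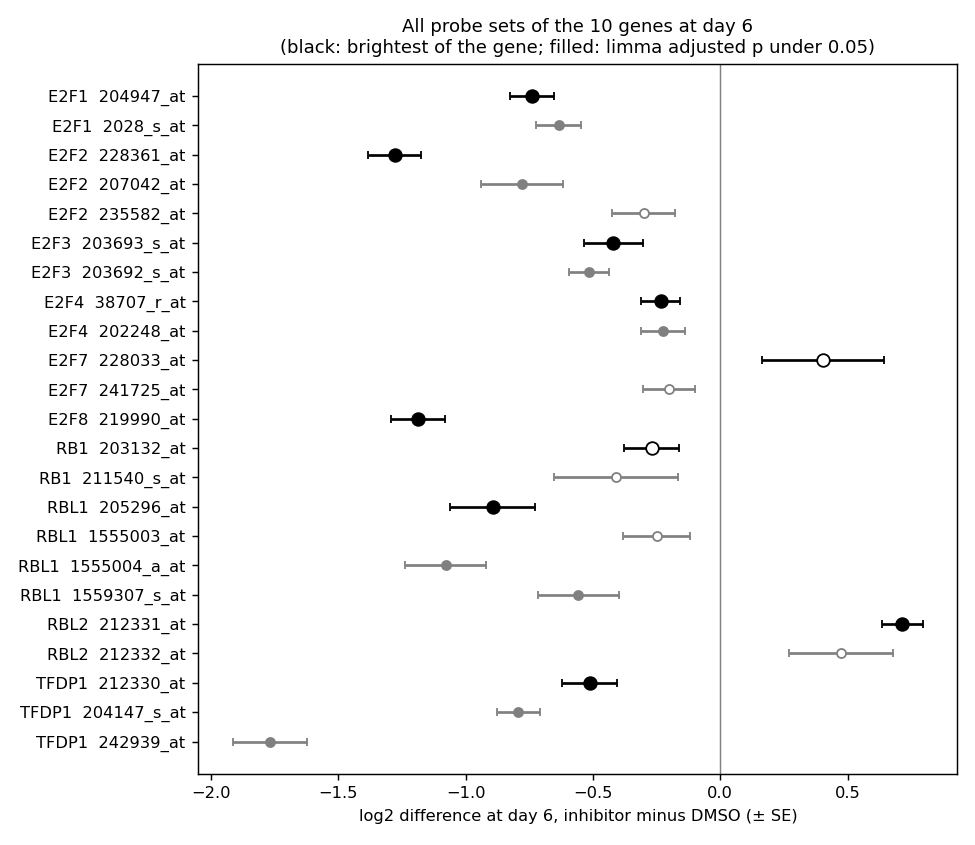
Log2 difference at day 6, inhibitor minus DMSO, of each of the 23 probe sets with bars for the SE, black for the brightest probe set of a gene and grey for the others, filled where limma's p adjusted over all probe sets was under 0.05. All probe sets of E2F1, E2F2, E2F3, E2F4, RB1, RBL1 and TFDP1 lie left of 0, both of RBL2 lie right of it, and the pair of E2F7 lies on either side.

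The growth of the differences was tested as the effect at day 6 minus the effect at day 1. It was called for 6 of the 10 genes, against 26.7% of all genes: E2F2 (-1.24 ± 0.14), E2F8 (-1.25 ± 0.15), RBL1 (-0.91 ± 0.23), E2F1 (-0.77 ± 0.12), TFDP1 (-0.46 ± 0.15) and, upward, RBL2 (0.63 ± 0.11). For TFDP1 the call did not hold when the third DMSO array or the first inhibitor array of day 1 was left out (adjusted p = 0.0895 and 0.0888). The same held for the first DMSO array, the second DMSO array and the third inhibitor array of day 6 (0.0729, 0.0531 and 0.0625). The TFDP1 call was kept with the mean of its probe sets and with its highest-variance probe set. E2F3 was called as well with the mean of its probe sets (-0.47, adjusted p = 0.0039). From day 3 to day 6 the effect was called as larger for 4 genes, against 12.5% of all genes: E2F8 (-1.0 ± 0.15, adjusted p = 9e-05), E2F2 (-0.84 ± 0.14, adjusted p = 0.00041), RBL2 (0.47 ± 0.11, adjusted p = 0.0067) and E2F1 (-0.38 ± 0.12, adjusted p = 0.038). The E2F1 call did not hold when the first DMSO array of day 3 was left out (adjusted p = 0.106), any inhibitor array of day 3 (0.0636, 0.0591 and 0.0719), the first or the third DMSO array of day 6 (0.0605 and 0.0944) or the first or the third inhibitor array of day 6 (0.0527 and 0.0894), nor relative to the median gene (0.0754). The RBL2 calls rested on its brightest probe set. With the dimmer one the growth was 0.41 from day 1 and 0.30 from day 3 to day 6, neither called (adjusted p = 0.34 and 0.597), and with the mean of both it was 0.38 from day 3, not called (0.145). For TFDP1 the growth from day 3 was called with the mean of its probe sets (-0.70, adjusted p = 0.00031). It was also called with its highest-variance probe set (-1.29, adjusted p = 0.00027), though not with its brightest. With same-numbered arrays of a day treated as a block, limma also called the growth from day 1 for E2F3 (-0.42, adjusted p = 0.0106) and RB1 (-0.35, adjusted p = 0.0493) and from day 3 for TFDP1 (-0.34, adjusted p = 0.0155). That block called 3977 of all genes in place of 2474 for day 6 minus day 3. For day 6 minus day 1 its count of all genes is not given here, so nothing is read from the added blocked calls of E2F3 and RB1.

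Between DMSO day 1 and DMSO day 6 limma called 0 of the 10 genes, against 0.288% of all genes. RBL2 alone had an unadjusted p under 0.05, a threshold for which no share of all genes is given. Its DMSO arrays at day 6 were all below those at day 1 (9.46, 9.42 and 9.45), by -0.20 ± 0.08 (adjusted p = 0.46). Within the inhibitor arm, day 6 minus day 1 was called for 8 of the 10 genes, against 41% of all genes. The differences were -1.27 for E2F2, -1.15 for E2F8, -0.81 for RBL1, -0.75 for E2F1, -0.52 for TFDP1, -0.49 for E2F3 and -0.46 for RB1. The RB1 difference depended on the probe set: it was -0.17 with the mean of both (adjusted p = 0.234) and 0.11 with the dimmer one (adjusted p = 0.745), neither called. RBL2 rose by 0.44 within that arm, beside 0.72 against DMSO of day 6. These comparisons share arrays with those against DMSO and are not separate evidence.

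Genes that E2F factors are known to switch on were lower as a body at day 6. The lists here and below were chosen with earlier results of these data known, so their counts are descriptions. Of 38 measured target genes of DNA synthesis, 38 were lower, with a median of -1.39, and 31 were already lower at day 3, with a median of -0.43. The shares of all genes lower at days 6 and 3 were 26.9% and 7.65%. Day 6 differences were -2.38 ± 0.13 for the origin recognition gene ORC1, -2.21 ± 0.09 for the helicase component CDC45, -2.04 ± 0.10 for the licensing factor CDC6 and -2.02 ± 0.15 for the helicase subunit MCM4. At day 2 the list held 2 lower genes, where 0.824% of all genes were lower, among them CDC45 (-0.48 ± 0.09, adjusted p = 0.0028), and at day 1 limma called none of the 38. EZH2 itself belongs to this list and stood at differences of 0.05, -0.09 and -0.29 at days 1 to 3, not called, before it fell by 0.64 ± 0.12 at day 6 (adjusted p = 8.9e-05).

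Mitotic genes that the DREAM complex represses in resting cells were lower too. Of 40 measured, 40 were lower at day 6, with a median of -1.26, and 11 at day 3, with a median of -0.23. These counts stand beside 26.9% and 7.65% of all genes. Day 6 differences were -1.78 ± 0.13 for the condensin gene NCAPH, -1.61 ± 0.14 for the cohesin protector SGO1, -1.59 ± 0.17 for the spindle gene ASPM and -1.59 ± 0.10 for the kinesin KIF2C. In alternatives chosen after seeing the data, the day 3 count was 5, 6 and 5 with the first, the second or the third DMSO array left out, 4 with the second or the third inhibitor array left out, and 3 relative to the median gene. At day 6 the smallest count with 1 array left out was 39. Whether the synthesis genes moved before the mitotic genes was not tested.

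Of the other genes of the family and of the MuvB core, on which the DREAM complex is built, 5 of 11 were lower and 1 higher at day 6 (median -0.18). Among all genes, 26.9% were lower and 18.5% higher. MYBL2, which joins MuvB in S phase and is an E2F target, differed by -1.77 ± 0.09 at day 6, and FOXM1, which follows it in G2, by -1.23 ± 0.09. MYBL2 was already lower at day 2 (-0.32 ± 0.09, adjusted p = 0.038) and day 3 (-0.69 ± 0.09). The MuvB subunit gene LIN9 fell by 0.85 ± 0.20, whereas the subunit gene LIN37 rose by 0.40 ± 0.12. E2F5 and TFDP2, the remaining canonical repressor and the DP1 relative, differed by 0.07 ± 0.15 and 0.00 ± 0.10 and were not called, and these 2 were named after their values were seen.

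The listed genes for the kinases that act on pocket proteins, their cyclins and their regulators were lower without exception among those called. The lower genes numbered 10 of 14 at day 6, with a median of -0.82 for the list, and 4 at day 3. The shares of all genes were 26.9% and 7.65%. Day 6 differences were -1.96 ± 0.10 for the phosphatase gene CDC25A, which activates the kinases, -1.66 ± 0.16 for cyclin A2 (CCNA2), -1.21 ± 0.15 for cyclin E2 (CCNE2) and -1.20 ± 0.15 for CDK4, the partner of D-type cyclins. The day 3 count was 2 when the second DMSO array, or the second or the third inhibitor array, was left out. Of 7 measured CDK inhibitor genes, 1 was higher and 3 lower at day 6, where 18.5% of all genes were higher and 26.9% lower. CDKN1B, the p27 gene, rose by 0.75 ± 0.14 and CDKN2A, the p16 and ARF locus, fell by 0.73 ± 0.05. CDKN3, a phosphatase gene that rises with the cell cycle, fell by 0.53 ± 0.13. CDKN2B fell by 0.25 ± 0.10, close to the threshold (adjusted p = 0.0466), and its arrays overlapped. The median of this list was -0.14 with the brightest probe sets and 0.15 with the mean of each gene's probe sets, so no direction is given for it.

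Genes for the corepressors that pocket proteins bring to chromatin were split, with 5 of 18 higher and 9 lower at day 6 (median -0.12, near that of all genes). For this list and the next, the shares over all genes were 18.5% higher and 26.9% lower. CTBP2 rose by 1.90 ± 0.13 and the H4K20 methyltransferase gene KMT5B by 1.12 ± 0.09, whereas the H3K9 methyltransferase gene SUV39H1 fell by 0.76 ± 0.08 and the remodeller gene SMARCA4 fell by 0.64 ± 0.07. Relative to the median gene the split was 7 and 7. Partner genes of E2F6, a repressor that acts without pocket proteins, were higher for 3 and lower for 6 of 11, with day 6 differences of -1.40 ± 0.09 for WDR5, -0.81 ± 0.12 for PCGF6, -0.76 ± 0.08 for YAF2 and 0.72 ± 0.09 for RYBP.

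**Figure D4:**
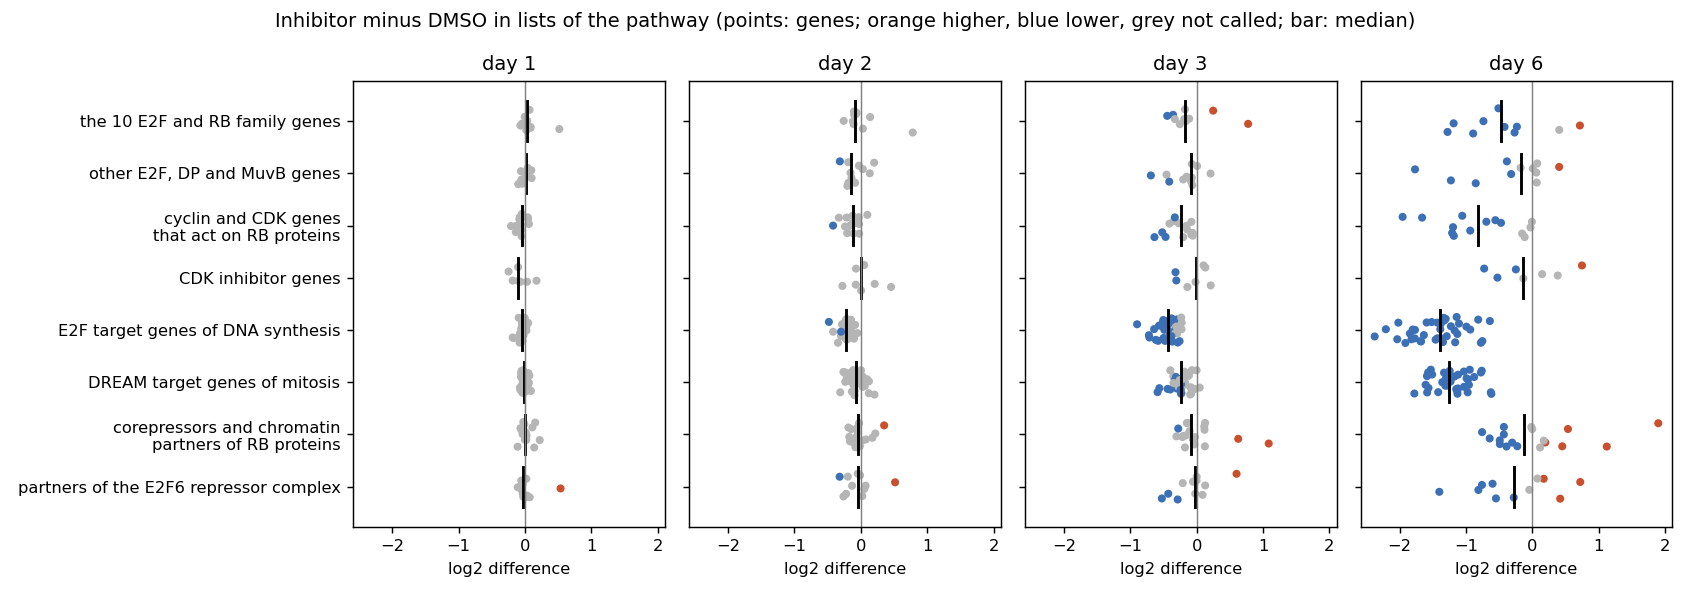
Log2 difference, inhibitor minus DMSO, of single genes (points) in the 10 genes and 7 lists of the pathway at days 1, 2, 3 and 6, orange for higher, blue for lower and grey for not called by limma, with a bar for the median. At day 6 all points of the DNA synthesis and mitosis lists are blue, with medians of -1.39 and -1.26, while the lists of inhibitors, corepressors and E2F6 partners hold both colours.

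The patterns most like those of the widely varying members were read from the 8 group means, among 11865 genes outside the dimmest 40 percent. Because each gene shares these arrays, the correlations are descriptions. They rest largely on 1 group, the inhibitor group of day 6. E2F2, E2F8 and RBL1 had means of 7.27, 8.09 and 6.42 there, and their next lowest group means were 8.13, 9.09 and 7.02. Other genes that moved mainly in that group would also give a high r. E2F2 was closest to MCM2 (r = 0.999), a helicase subunit, CDCA5 (0.999), which holds sister chromatids, and the histone methyltransferase gene NSD2 (0.999). The genes closest to E2F8 were NAP1L1 (0.997), PTPRO (0.995) and the kinetochore gene NUF2 (0.995), and to RBL1 NSL1 (0.990), PGK1 (0.989) and MNS1 (0.987).

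Markers of the labelled cell type were present, with 8 measured B cell genes at means of 5.72 to 12.72 over all arrays, and none of the 8 dim. At day 6, limma called 5 of them higher and none lower, where 18.5% of all genes were higher and 26.9% lower. The 11 measured myeloid markers were all among the dimmest 40 percent of genes, as were 8 of 12 T and NK cell markers and 6 of 13 stromal, endothelial and epithelial markers. The exceptions included CD3G and DCN, with means of 10.95 and 12.95, named after their values were seen. Between groups the mean log2 level ranged from 4.11 to 4.23 for the myeloid list, 5.29 to 5.50 for the T and NK list and 5.25 to 5.52 for the stromal list. At day 6, 3 T and NK markers were lower, 1 myeloid marker was higher and 4 were lower, and 3 stromal markers were higher and 2 lower. Among all genes, 26.9% were lower and 18.5% higher at that day. The higher myeloid marker was LYZ, named after its values were seen, with a day 6 difference of 2.52 ± 0.26 (mean 3.69 in DMSO and 6.20 with the inhibitor), which the mean of its list does not show. LYZ was higher at day 3 as well (1.97 ± 0.26). Among the stromal list, PECAM1, also named after its values were seen, differed by 4.20 ± 0.25 at day 6. Its mean was 5.08 in DMSO and 9.28 with the inhibitor, a change whose size the mean of its list does not show. PECAM1 was higher at days 2 and 3 too (1.69 ± 0.25 and 2.81 ± 0.25). The 4 lower myeloid markers became 1 when the second DMSO or the second inhibitor array was left out, and 2 when the first or the third DMSO array or the first inhibitor array was. The 2 lower stromal markers became 1 when the second or the third DMSO array or the third inhibitor array was left out. Their part in the results was not tested.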

How the data were processed

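Affymetrix U133 Plus 2 arrays, 24 in all, measured total RNA (Trizol, biotin label). The submitters' processing notes name RMA and R 2.10.1, so the deposited values are RMA output of the authors on a log2 scale. No source used here gives the log base, and the range of 1.72 to 14.33 is that of log2 values. Of 54613 probe sets, 41091 have 1 gene symbol and gave 19775 genes, each by its brightest probe set. Symbols were updated by Entrez ID through RefSeq for 41037 of them.

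Differences were tested here with limma 3.58.1 in R 4.3.3 (1 coefficient per group, eBayes, 16 residual and 5.22 prior degrees of freedom), 2-sided, with Benjamini-Hochberg adjustment across all genes, or across all probe sets where said. The fit was tested on simulated data whose noise was independent between arrays. That test therefore cannot show how the fit behaves when same-numbered arrays correlate, as they do here. Precision is limited by the number of arrays, and RMA evens out array totals, so that a change in RNA per cell is not seen.

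The members and lists were chosen with earlier results of these data known. Text names all members, up to 4 called genes of each list with the largest day 6 difference, EZH2, and for members whose group means span 1 log2 unit the 3 genes of closest pattern. Labels call the replicates biological, and p-values measure the spread between these samples. Alternatives tried were other probe set rules, scalings, a filter on dim genes, smaller fits, blocks, array weights, a trended prior and leaving out arrays. After group means were removed, same-numbered arrays of a day correlated by 0.19 or more at days 1, 3 and 6 (all 9 pairs) and by 0.04 for 1 pair of day 2, so the replicate numbers were taken as pairs except at day 2, from the data and not from the labels, and blocked values stand beside results whose call they change. The main fit and the fits with arrays left out used no block, so their SE and adjusted p ignore this pairing.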

Additional observations from a re-analysis of the deposited data

Results flagged for a closer look

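The inhibitor's effect differed between days for several members, by limma's test of the difference of effects. Between day 1 and day 6 it changed by -0.77 for E2F1, -1.24 for E2F2, -1.25 for E2F8, -0.91 for RBL1, -0.46 for TFDP1 and 0.63 for RBL2 (adjusted p = 3.5e-05, 9.4e-07, 1.1e-06, 0.005, 0.027 and 0.00014). Between day 3 and day 6 it changed by -0.38 for E2F1, -0.84 for E2F2, -1.0 for E2F8 and 0.47 for RBL2. The sign is that of the effect at day 6 minus the effect of the earlier day, and the values are those of the brightest probe sets. For RBL2 neither change was called with its dimmer probe set (0.41 and 0.30, adjusted p = 0.34 and 0.597), nor the change from day 3 with the mean of both (0.38, adjusted p = 0.145). Groups of 3 arrays are too small for a test of single outlying arrays.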

How the results depend on the processing

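At day 6 no member changed direction under any alternative, and E2F1, E2F2, E2F8, RBL1 and TFDP1 were called under each. None of the alternatives used the dimmer E2F7 probe set alone, which pointed the other way without being called. For RB1 the inhibitor day 6 minus day 1 difference turned to 0.11 with its highest-variance probe set. RBL2 at day 6 was not called with its highest-variance probe set (0.47, adjusted p = 0.069). Differences that were not called changed sign in 28 of 200 member values at day 1, 5 at day 2 and none at days 3 and 6.

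Without 1 array, or without all arrays of 1 number, the members called at day 6 were 6 to 8, at day 3 0 to 3, at day 2 0 to 1 and at day 1 0. For the effect at day 6 minus that at day 1 they were 5 to 7, for day 6 minus day 3 2 to 4, within the inhibitor arm 6 to 8 and within DMSO 0. All genes called then numbered 2 to 87 at day 1, 255 to 720 at day 2, 1234 to 3067 at day 3 and 6463 to 8431 at day 6 (96, 869, 3221 and 8977 with all arrays), and 2998 to 5056, 601 to 2443, 5739 to 7565 and 7 to 41 in the other 4 comparisons in that order. Without the arrays numbered 2, limma called 0 members at day 3 (E2F1 adjusted p = 0.126, E2F2 0.0824) and E2F3 was not called at day 6 (0.125).

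Arrays of one day correlated, after group means were removed, by 0.19 or more for 11 of 12 same-numbered pairs and 0.04 for number 2 at day 2, and 23 of 24 arrays were closest to one of their own number. All 3 pairs passed 0.1 at days 1, 3 and 6, so the numbers were taken as pairs in comparisons within and between those days, and not at day 2. Pairing entered the blocked fits only, not the main fit. Under a replicate block, genes called were 246 at day 1, 1649 at day 2, 3715 for day 6 minus day 3 and 199 within DMSO, and with a replicate block within each day 301 and 1866 at days 1 and 2, 4853 at day 3 and 3977 for day 6 minus day 3. Either block called 1 member at day 2, E2F7 (adjusted p = 0.00045 and 0.0015), and called E2F7 at day 6 (0.0143 and 0.0162) and E2F3 at day 3 (0.0218 and 0.032). Either also called E2F3 and RB1 for day 6 minus day 1 (0.00548 and 0.0106, 0.0285 and 0.0493) and TFDP1 for day 6 minus day 3 (0.0129 and 0.0155), and changed no other member's call.

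Day 1 calls were 53 with the mean of probe sets, 46 when only the arrays of the groups compared were fitted and 160 with array weights. Day 2 calls were 1441 with array weights, and DMSO calls 31 with that smaller fit and 92 with array weights. Relative to the median gene, 1 member was called at day 2 (E2F7, adjusted p = 0.0499). The block within each day gives no comparison within an arm. The promoter search found 6 members with the initial T dropped, against 5.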
